A study of Saccharomyces cerevisiae with 22 samples.

Results

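The ribosomal DNA (rDNA) of budding yeast is a tandem array on the right arm of chromosome XII whose copy number drifts from cell to cell over generations. The array codes for ribosomal RNA, the main RNA of a growing cell. The libraries described here come from haploid MATa Saccharomyces cerevisiae whose names begin with CGY20 or CGY24. Each name series has 3 strains: the CGY20 strains carry 118, 147 and 237 rDNA repeats and the CGY24 strains 72, 129 and 156. Each strain gave 1 library of polyA-selected RNA of normal recovery and 1 of total RNA made without selection, which makes 12 of the 22 libraries measured. All 6 strains share the genotype MATa his3d1 lyp1d0 can1d::STE2pr-spHIS5, in which a mating-type-a promoter drives a HIS5 gene at the CAN1 locus. The labels do not say what the name prefixes stand for. The strains were compared by name series whatever their array length, and the question was which genes differ the same way in both assays. The mean array length was 167.3 repeats in CGY20 and 119.0 in CGY24, and the ranges overlap, so array length and series are partly mixed in this comparison.

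The polyA values are TPM as deposited and keep no depth. The total RNA values are normalised read counts from which whole reads were recovered, and 93.5% to 94.4% of the reads of these 6 libraries lay in the rDNA. This left 377986 to 465645 reads outside the rDNA, with a median of 28.2 reads per library over the tested features. Precision therefore differs between the assays: the median standard error of a series difference was 0.092 log2 units in polyA RNA and 0.25 in total RNA. The CGY20 strain of 147 repeats stood apart in polyA RNA, with a median deviation of -0.07 log2 from the mean of the 6 libraries over the 3431 genes tested in both assays, against 0.00 to 0.03 in the other strains. Summed TPM of 7 a-cell markers was 12922.7 to 17210.8 in CGY20 and 12932.6 to 16208.1 in CGY24. The 4 alpha-cell markers summed to 15.0 to 17.2 and 15.4 to 16.1 TPM, and 6 markers of sporulating cells to 10.2 to 13.7 and 9.87 to 10.7 TPM, with no marker at 0.

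Several of the genes described here belong to well-studied circuits. Yeast takes up iron with a surface oxidase and permease pair, switched on by the factor Aft1 when iron is scarce. Under stress or slow growth, the factors Msn2 and Msn4 raise genes of trehalose synthesis and protection while ribosomal protein genes are lowered. After division, enzymes of the cell wall digest the septum that joins mother and daughter.

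No gene passed an adjusted p under 0.05 in both assays. In polyA RNA, limma with Benjamini-Hochberg adjustment called 3 of 5535 genes (0.0542%), 1 higher (0.0181%) and 2 lower (0.0361%) in CGY20. In total RNA it called 2 of 3749 features (0.0533%), both higher in CGY20, and neither was among the genes tested in polyA RNA. At an unadjusted, two-sided p under 0.05, 213 genes passed in polyA RNA (3.85%), 95 of them higher (1.72%) and 118 lower (2.13%), and 183 passed in total RNA (4.88%), 85 higher (2.27%) and 98 lower (2.61%). The polyA split depended on scaling and was 131 higher and 105 lower with TMM factors. Among the 3431 genes tested in both assays, 80 (2.33%) passed in polyA RNA and 150 (4.37%) in total RNA. There were 7 genes past this threshold in both assays with the same direction (0.204%), 6 lower and 1 higher in CGY20, and 0 with opposite directions. Both assays used the same strains, so agreement between them is not an independent replication of a series difference. Whether both libraries of a strain came from the same RNA extraction is not stated. The 7 were FET3, TSL1, ADR1, CHA1, HST3 and CTS1, with lower means in CGY20, and RPL31B, with a higher mean. The adjusted p of each of the 7 was 0.991 in polyA RNA and 0.814 to 0.969 in total RNA. An exact permutation test of a single gene with 3 strains a side cannot give a two-sided p under 0.1.

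**Figure D1:**
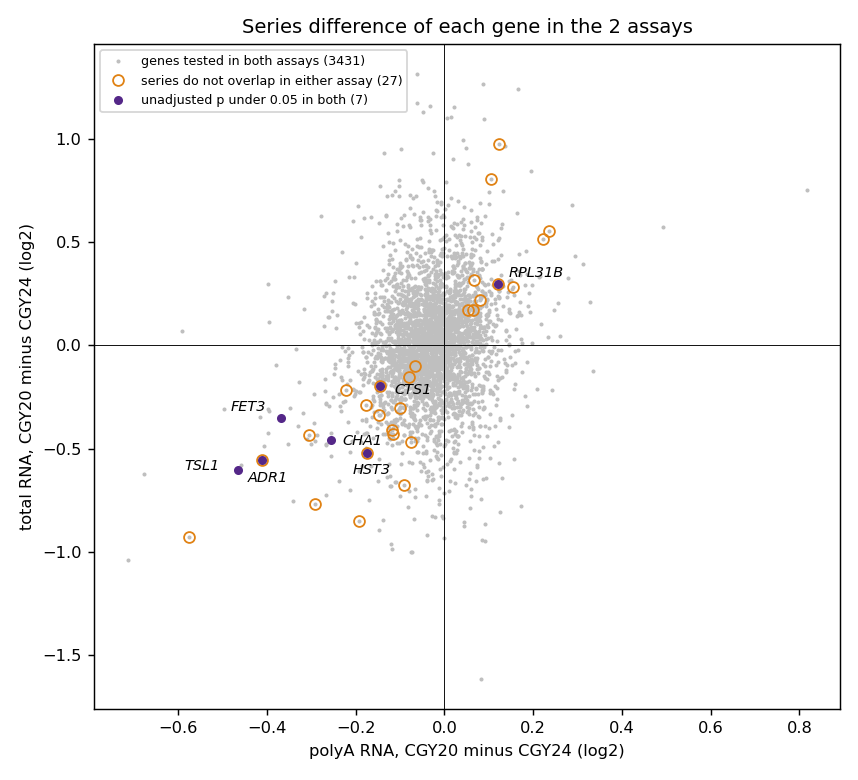
Series difference of each gene, CGY20 minus CGY24 in log2 units, in polyA RNA (horizontal) and total RNA (vertical). Grey points are the 3431 genes tested in both assays, orange rings the 27 genes whose 3 CGY20 and 3 CGY24 libraries do not overlap in either assay, and purple points the 7 genes past an unadjusted p of 0.05 in both, of which RPL31B is the one with a higher mean in CGY20.

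The means of 1906 genes differed in the same direction in both assays and those of 1525 in opposite directions. Of the former, 690 had higher and 1216 had lower means in CGY20. The excess of lower means depended on the scaling and on the strain of 147 repeats: over all polyA genes tested, 2178 were higher and 3357 lower as reported, 2753 and 2782 with TMM factors, and 2836 and 2703 without that strain. When each strain's 2 libraries were averaged into 1 value, 0 of 3431 genes passed the adjusted threshold in limma and 175 passed unadjusted (5.1%), and the lowest adjusted p was 0.554. The interaction of assay and series, which tests whether the series difference itself differs between the assays, called 0 genes adjusted and 147 unadjusted (4.28%).

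FET3 encodes the multicopper oxidase of high-affinity iron uptake, at chromosome XIII 388822 to 390732 of the S288C reference, build R64. Its polyA level was 92.2, 94.4 and 106 TPM in the CGY20 strains of 118, 147 and 237 repeats and 132, 106 and 143 TPM in the CGY24 strains of 72, 129 and 156 repeats. Its total RNA level was 175, 189 and 209 normalised reads in CGY20 and 250, 194 and 297 in CGY24, in the same order of strains. The CGY24 strain of 129 repeats was the lowest of its series in both assays and lay inside the CGY20 range in total RNA, so the groups were apart in polyA RNA by a narrow margin and overlapped in total RNA. The log2 difference, CGY20 minus CGY24, was -0.37 ± 0.11 (SE, n = 3 strains a side, 95% limma interval -0.61 to -0.13) in polyA RNA and -0.35 ± 0.14 (-0.63 to -0.07) in total RNA. Of the 7 genes, FET3 was the one past p of 0.05 in polyA RNA under all 17 alternative settings, and in total RNA under 15 of 18. Without the CGY24 strain of 156 repeats or the CGY20 strain of 118 repeats the unadjusted total RNA p was above the threshold, up to 0.151, and without the former the total RNA difference was -0.21. These are bulk cultures, so fewer cells with the message and less message per cell cannot be told apart, for this gene or any other. The window from 300 to 51 bases before the FET3 start codon, chrXIII:388522-388771 on the plus strand, is shown because it holds the 6-base core of the Aft1 motif, in capitals.
FET3: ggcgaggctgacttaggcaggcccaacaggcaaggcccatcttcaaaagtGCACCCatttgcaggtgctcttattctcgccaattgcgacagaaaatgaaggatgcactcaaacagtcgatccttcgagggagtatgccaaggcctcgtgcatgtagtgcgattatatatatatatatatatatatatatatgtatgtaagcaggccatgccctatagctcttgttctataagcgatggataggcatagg
This core, GCACCC or its reverse complement, occurs in 3.5% of the 6020 such windows of protein-coding genes and in 1 of the 7 genes. A match is a description of the letters and not a measured site.

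The other members of iron uptake give the setting for FET3. Of 24 listed genes tested in polyA RNA, 0 were higher and 3 lower in CGY20 at an unadjusted p under 0.05, and the median difference was -0.07 against -0.02 over all genes, of which 2.13% were lower at that threshold. In total RNA 13 were tested, 1 (FET3) was lower and the median was -0.23 against 0.00 over all features, of which 2.61% were lower. FTR1, the permease that works with Fet3, was at 161, 162 and 148 TPM in CGY20 and 195, 177 and 181 TPM in CGY24, and ARN1, a siderophore transporter, at 13.1, 11.8 and 10.3 against 14.4, 14.0 and 14.4 TPM. For both genes the groups were apart in polyA RNA and overlapped in total RNA. In total RNA the log2 difference was -0.17 ± 0.17 for FTR1 and -0.73 ± 0.39 for ARN1, and neither passed. Not all members went this way: 7 of the 24 had higher means in CGY20 in polyA RNA and 4 of the 13 in total RNA. FTH1 differed by 0.03 ± 0.09 in polyA RNA and 0.43 ± 0.28 in total RNA, and SIT1 by -0.33 ± 0.17 and -0.02 ± 0.29. The polyA median of the list was -0.008 without the CGY24 strain of 156 repeats, -0.02 without the CGY20 strain of 147 and -0.12 without that of 237. The total RNA median was -0.08 without the CGY20 strain of 118 repeats, and -0.13 and -0.14 without the CGY24 strains of 72 and 156. FTR1, ARN1, FTH1 and SIT1 were named after their values were seen.

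TSL1, a large subunit of the trehalose synthase complex, lies at chromosome XIII 70624 to 73920. It was at 16.3, 10.2 and 17.9 TPM in CGY20 and 21.4, 18.6 and 21.0 TPM in CGY24. In total RNA it was at 48.0, 29.3 and 59.2 normalised reads in CGY20 and 73.8, 74.6 and 54.5 in CGY24. The strain of 147 repeats was the lowest of all 6 in both assays, and in total RNA the groups overlapped through the strains of 237 and 156 repeats. On the log2 scale the difference was -0.47 ± 0.19 (95% interval -0.90 to -0.03) in polyA RNA and -0.60 ± 0.22 (-1.06 to -0.15) in total RNA. Without the strain of 147 repeats the log2 difference was -0.24 in polyA RNA and -0.32 in total RNA, where p was 0.112, and without the CGY24 strain of 72 or 156 repeats the polyA p reached up to 0.103. The upstream window of TSL1, chrXIII:70324-70573 on the plus strand, is shown because it holds 3 copies of AGGGG, the core of the stress response element bound by Msn2 and Msn4. The capitals mark these 3 copies.
TSL1: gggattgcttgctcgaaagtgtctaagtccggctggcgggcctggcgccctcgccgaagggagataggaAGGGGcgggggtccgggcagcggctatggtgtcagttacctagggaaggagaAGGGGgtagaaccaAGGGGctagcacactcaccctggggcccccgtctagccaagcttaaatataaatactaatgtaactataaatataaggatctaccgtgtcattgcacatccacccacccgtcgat
AGGGG on either strand is in 19.17% of the 6020 windows and in 1 of the 7 genes. No 2 matches overlap in the windows shown.

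ADR1 encodes the activator of genes for growth on ethanol, glycerol and fatty acids, and is itself a low-abundance message. It was at 4.67, 2.62 and 4.02 TPM in CGY20 and 5.24, 5.12 and 5.34 TPM in CGY24. In total RNA it was at 18, 14.7 and 17.6 normalised reads in CGY20 and 21.6, 28.2 and 25.6 in CGY24. All 3 CGY20 strains were below all 3 CGY24 strains in both assays, and the strain of 147 repeats was again the lowest. Its log2 difference was -0.41 ± 0.17 (95% interval -0.78 to -0.04) in polyA RNA and -0.56 ± 0.26 (-1.09 to -0.02) in total RNA. Leaving out 1 of 4 strains (147, 72, 129 or 156) raised the polyA p above 0.05, up to 0.104, and 1 of 4 (147, 237, 129 or 156) raised the total RNA p, up to 0.143. Without the strain of 147 repeats the polyA difference was -0.22.

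CHA1 is the catabolic serine and threonine deaminase. Its polyA level was 114, 90.9 and 115 TPM in CGY20 and 140, 115 and 127 TPM in CGY24. Its total RNA level was 38.0, 26.4 and 29.6 normalised reads in CGY20 and 43.2, 43.3 and 42.3 in CGY24. The groups overlapped narrowly in polyA RNA at the strains of 237 and 129 repeats and were apart in total RNA, where the SD of the 3 CGY24 strains was 0.588 normalised reads. CHA1 differed by -0.26 ± 0.10 log2 (95% interval -0.49 to -0.02) in polyA RNA and by -0.46 ± 0.21 (-0.88 to -0.03) in total RNA. The highest p on leaving out 1 strain was 0.129 in polyA RNA, where 3 of the 6 omissions gave p above 0.05, and 0.135 in total RNA, where 5 of 6 gave p above 0.05. Without the strain of 147 repeats the polyA difference was -0.14.

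HST3 is one of the sirtuins, a histone H3 deacetylase. It was at 31.5, 29.95 and 29.2 TPM in CGY20 and 34.7, 36.0 and 32.0 TPM in CGY24. The total RNA values were 16.0, 20.53 and 24.06 normalised reads in CGY20 and 27.9, 30.2 and 28.9 in CGY24. No CGY20 strain reached the lowest CGY24 strain in either assay. Log2 differences were -0.17 ± 0.08 (95% interval -0.34 to -0.01) in polyA RNA and -0.52 ± 0.25 (-1.02 to -0.01) in total RNA. Omitting 1 strain gave a p of up to 0.145 in polyA RNA and up to 0.178 in total RNA, with 4 and 5 of the 6 omissions above 0.05. The limma polyA p was 0.0698 with TMM factors and 0.0681 with quantile normalisation. In total RNA the p was 0.0558 in limma without a filter and 0.160 in DESeq2.

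CTS1 encodes the endochitinase that digests the septum between mother and daughter cells. It was at 563.4, 505.9 and 532.3 TPM in CGY20 and 586.3, 621.8 and 563.5 TPM in CGY24. In total RNA it was at 455, 460.4 and 451.6 normalised reads in CGY20 and 530.8, 552.3 and 488.1 in CGY24. The groups were apart in both assays, in polyA RNA only narrowly, at the strains of 118 and 156 repeats. For CTS1 the log2 difference was -0.15 ± 0.06 (95% interval -0.28 to -0.01) in polyA RNA and -0.20 ± 0.10 (-0.39 to -0.004) in total RNA. With 1 strain left out, p was above 0.05 in 4 of 6 cases in polyA RNA and in 5 of 6 in total RNA, at most 0.124 and 0.172.

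Of 13 listed genes of daughter-cell separation, 1 (CTS1) was lower and 0 higher in polyA RNA at an unadjusted p under 0.05, with a list median of -0.07, against 2.13% lower and a median of -0.02 over all genes. In total RNA 2 were lower, CTS1 and CYK3, and the median was -0.12, against 2.61% lower and a median of 0.00. The strain medians of the list overlapped between the series in both assays. The polyA call of CTS1 was lost with TMM factors or quantile normalisation. The polyA list median was -0.03 without the strain of 147 repeats, -0.04 without that of 72, and -0.11 without that of 237 or 129. CYK3, which acts in closing the division site, was at 21.0, 23.5 and 32.4 normalised reads in CGY20 and 39.6, 35.3 and 46.7 in CGY24 (log2 difference -0.66 ± 0.23), but at 18.5, 15.5 and 19.4 against 17.6, 16.4 and 18.6 TPM in polyA RNA (0.01 ± 0.10). The groups were apart for CYK3 in total RNA and overlapped in polyA RNA. The glucanase DSE4 had means of 53.6 ± 8.14 and 59.6 ± 2.48 TPM (SD, n = 3) and of 178 ± 29.7 and 209 ± 21.9 normalised reads in CGY20 and CGY24, with groups that overlapped in both assays. SUN4, a cell wall protein of septation, had a log2 difference of -0.14 ± 0.06 in polyA RNA and of 0.19 ± 0.14 in total RNA, and neither passed. SCW11, a glucanase-like wall protein, differed by -0.12 ± 0.08 and -0.05 ± 0.14, and did not pass in either assay.

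RPL31B encodes a protein of the large ribosomal subunit and was the one gene of the 7 with a higher mean in CGY20. Its polyA level was 1612, 1688 and 1668 TPM in CGY20 and 1542, 1471 and 1558 TPM in CGY24. Its total RNA level was 151, 121 and 147 normalised reads in CGY20 and 112, 107 and 120 in CGY24. All CGY20 values were above all CGY24 values in both assays. RPL31B differed by 0.12 ± 0.05 log2 (95% interval 0.01 to 0.23) in polyA RNA and by 0.30 ± 0.14 (0.02 to 0.58) in total RNA. Leaving out any of 4 strains in each assay (147, 237, 72 or 129 in polyA RNA, and 118, 237, 72 or 129 in total RNA) gave p above 0.05, up to 0.0848 and 0.143. With quantile normalisation the limma polyA p was 0.0856, and DESeq2 gave a p of 0.0893 in total RNA. RPL31A, its near-identical copy with which it can share reads, was at 3724, 3976 and 3848 TPM in CGY20 and 3768, 3490 and 3779 TPM in CGY24, and the groups overlapped (log2 difference 0.07 ± 0.05). In total RNA the RPL31A means were 235 normalised reads in CGY20 and 221 in CGY24 (log2 difference 0.09 ± 0.12), and the groups overlapped there too.

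**Figure D2:**
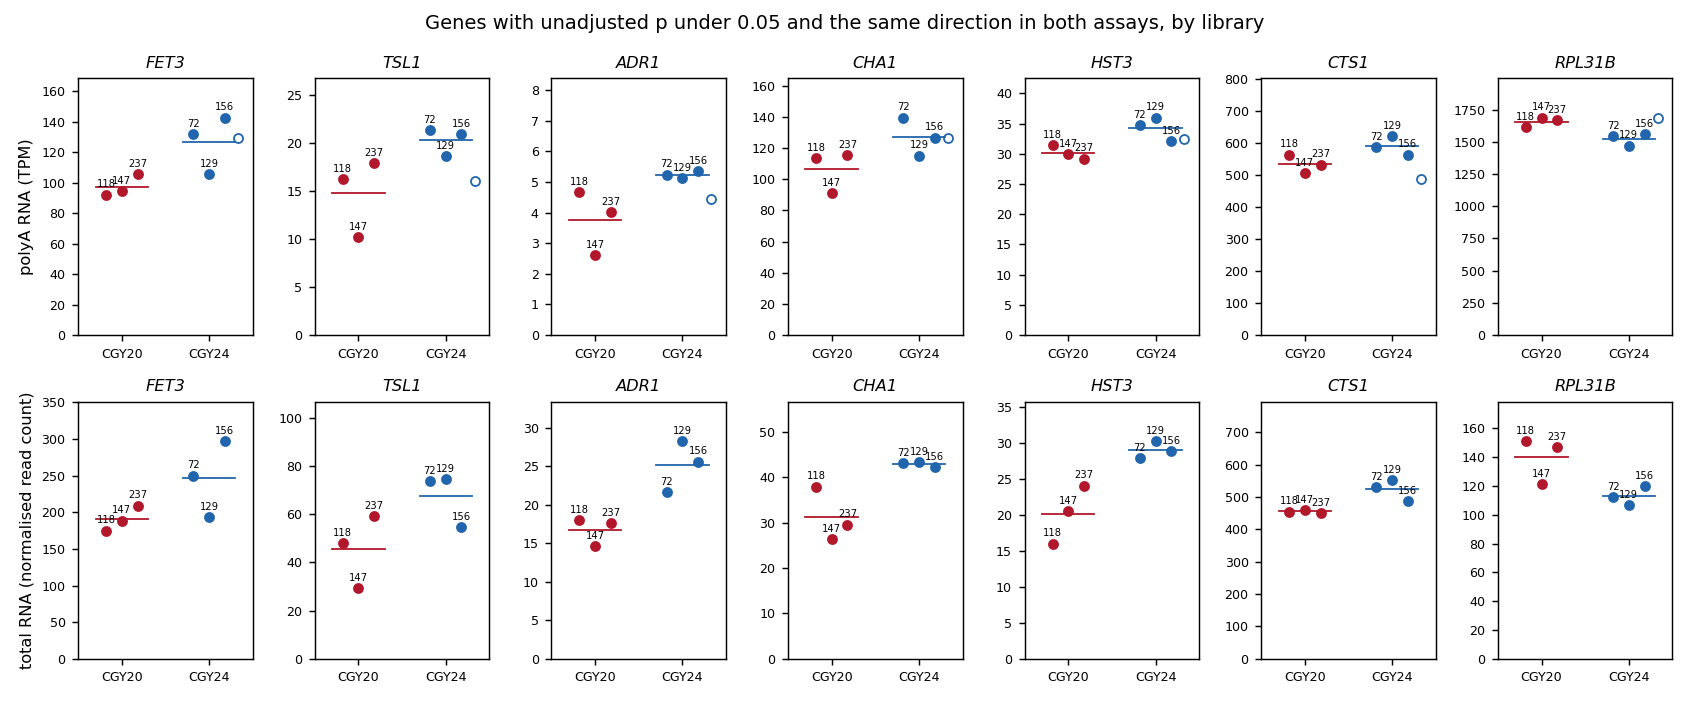
Level of the 7 genes in each library, as TPM in polyA RNA (top row) and as normalised read counts in total RNA (bottom row), on axes that start at 0. Filled points are single strains labelled with their rDNA repeats, lines are the means of 3 strains, and the open circle is the CGY24 strain of 104 repeats whose polyA recovery was low. ADR1, HST3, CTS1 and RPL31B are the 4 genes whose series do not overlap in either assay, and the margins are narrow for CTS1.

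The groups did not overlap, in the same direction, for 27 genes in both assays (0.787%), 10 with higher and 17 with lower levels in CGY20, and for 4 genes in opposite directions. In the same 3431 genes they were apart for 270 (7.87%) in polyA RNA and for 334 (9.73%) in total RNA, close to the 8.83% and 9.68% over all genes tested in each assay. The genes of this kind beyond the 4 above were named after their values were seen. Among the 10 higher were 4 proteins of the large ribosomal subunit, RPL31B, RPL42B, RPL13A and RPL30. RPL42B was at 3941, 3814 and 3847 TPM in CGY20 and 3720, 3482 and 3784 TPM in CGY24, and at 208, 220 and 226 against 184, 174 and 203 normalised reads. RPC10, a small subunit shared by the 3 nuclear RNA polymerases, was at 444, 397.4 and 435 TPM in CGY20 and 384, 389.9 and 397.2 TPM in CGY24, and at 20.0, 21.5 and 22.2 against 14.4, 6.05 and 12.2 normalised reads. The polyA margin was narrow, and the log2 difference was 0.12 ± 0.06 in polyA RNA, which did not pass, and 0.98 ± 0.33 (95% interval 0.31 to 1.64) in total RNA.

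The other genes with higher levels in CGY20 in both assays were BUR6, COX8, MLC1, TSR4 and IDS2. BUR6, a subunit of the transcription regulator NC2, was at 109, 111 and 120.4 TPM in CGY20 and 93.5, 100.5 and 94.2 TPM in CGY24 (log2 difference 0.24 ± 0.07). In total RNA it was at 20.0, 14.7 and 12.96 against 8.10, 11.1 and 12.2 normalised reads (0.55 ± 0.33, not past the threshold). COX8, a subunit of cytochrome c oxidase, was at 279, 314 and 279 TPM against 278, 234 and 236 TPM, a narrow margin, and at 21.0, 18.6 and 20.4 against 12.6, 12.1 and 16.7 normalised reads.

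Among the 17 lower genes, HXK1 had the largest difference in both assays. HXK1, a hexokinase that is raised away from glucose, was at 19.7, 10.5 and 21.7 TPM in CGY20 and 25.4, 22.4 and 27.8 TPM in CGY24, and at 11, 6.84 and 14.8 against 25.2, 21.2 and 16.7 normalised reads. Its strain of 147 repeats was the lowest in both assays, and the log2 difference was -0.57 ± 0.27 (95% interval -1.25 to 0.10) in polyA RNA and -0.93 ± 0.32 (-1.59 to -0.27) in total RNA. PLB1, a phospholipase B of the cell surface, was at 28.4, 18.4 and 28.2 TPM against 30.9, 29.6 and 30.4 TPM, and at 25, 25.4 and 24.06 against 42.3, 40.3 and 46.7 normalised reads. In total RNA its log2 difference was -0.77 ± 0.21 (95% interval -1.20 to -0.34, adjusted p = 0.520 in limma). GAS3, a member of the glucan-remodelling Gas family of the cell wall, was at 94.4, 85.4 and 93.1 TPM against 97.9, 107.5 and 103.3 TPM, and at 64.0, 70.4 and 75.9 against 81.0, 84.7 and 91.2 normalised reads. The rest were SWP1 and ALG8 of protein N-glycosylation, TAF7 of the general factor TFIID, the actin-cytoskeleton proteins LAS17 and TWF1, BAP2 (an amino acid permease), ART5 (an adaptor for permease turnover), RIB4 of riboflavin synthesis, the RNA-binding protein WHI4, the initiation factor FUN12 and TEF2. TEF2 can share reads with its near-identical copy TEF1, so its value is uncertain.

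No gene group held a call. Of 49 gene lists, 0 held a gene past the adjusted threshold in either assay, and the polyA list medians ran from -0.19 (general stress) to 0.07 (meiosis and sporulation). Of 35 general stress genes tested in polyA RNA, 4 were lower and 0 higher at an unadjusted p under 0.05 (TSL1, CTT1, SPI1 and HSP42), with a median of -0.19, against 2.13% lower and a median of -0.02 over all genes. Of 18 tested in total RNA, 4 were lower and 0 higher (TSL1, UGP1, HXK1 and GLK1), with a median of -0.13, against 2.61% lower and a median of 0.00. CTT1, the cytosolic catalase, was at 5.45, 3.96 and 4.81 TPM in CGY20 and 6.93, 6.61 and 6.32 TPM in CGY24, so the groups were apart, but its 2 to 8 reads per library in total RNA kept it out of that test. GLK1, a glucokinase, was at 84.3, 50.9 and 96.1 TPM against 98.8, 105.7 and 103.9 TPM, and at 58.0, 34.2 and 49.97 against 55.8, 82.6 and 73.4 normalised reads, where the groups overlapped. CTT1, SPI1, HSP42, UGP1 and GLK1 were named after their values were seen.

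The stress genes were lowest in the strain of 147 repeats in both assays. Over the 18 stress genes tested in both assays, its median deviation from the mean of the 6 libraries was -0.33 in polyA RNA and -0.45 in total RNA. The CGY20 strains of 118 and 237 repeats lay at -0.03 and 0.06 in polyA RNA and at 0.00 and 0.07 in total RNA. The CGY24 strains of 72, 129 and 156 repeats lay at 0.16, 0.05 and 0.10 in polyA RNA and at 0.27, 0.02 and 0.01 in total RNA. The groups overlapped in both assays. Without the strain of 147 repeats the polyA list median was -0.10 and 7 of 35 genes were lower at an unadjusted p under 0.05. In total RNA the median was then 0.01 and 0 of 20 genes were lower. Over all features, 102 of 5539 were lower in polyA RNA and 105 of 3939 in total RNA without that strain. The polyA count of lower genes was 8 of 35 without the strain of 118 repeats, 15 without that of 237 and 2 without that of 72. Over all genes, 189 of 5535, 250 of 5534 and 95 of 5533 were lower in these fits, in that order. The total RNA median was -0.01 without the CGY24 strain of 72 repeats, -0.27 without that of 129 and -0.23 without that of 156.

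Most genes of glycolysis and ergosterol synthesis had lower means in CGY20, while the strain medians of both lists overlapped between the series in both assays. Of the 20 glycolytic genes, 17 had lower means in CGY20 in both assays and 0 had higher means in both, with a list median of -0.10 in each. Past an unadjusted p under 0.05 were 0 in polyA RNA and 3 in total RNA (HXK1, GLK1 and PDC1, the main pyruvate decarboxylase). HXK1 and GLK1 are also counted among the general stress genes above, so the counts of these lists are not separate. PDC1 was at 11160, 10224 and 11752 normalised reads in CGY20 and 11648, 12820 and 11766 in CGY24, with groups that overlapped. Of the 24 genes of ergosterol synthesis, 19 had lower means in both assays and 1 had higher means in both, with medians of -0.10 and -0.13, and 1 passed in each assay (ERG1, the squalene epoxidase, in polyA RNA and ERG5, the C-22 desaturase, in total RNA). All of these that passed were lower in CGY20. In the same fits 2.13% of all polyA genes and 2.61% of all total RNA features were lower at an unadjusted p under 0.05. ERG5 was at 62.0, 43.0 and 63.9 normalised reads in CGY20 and 90.9, 78.6 and 65.6 in CGY24. Over all 3431 genes, 1216 had lower means in both assays, a number that moves with the polyA scaling and the strain of 147 repeats as given above. Without the strain of 147 repeats the polyA medians were -0.05 for glycolysis and -0.04 for ergosterol synthesis, against 0.00 over all genes, and the total RNA median for glycolysis was -0.05. The number of glycolytic genes lower at an unadjusted p in polyA RNA was 8 of 20 without the strain of 237 repeats and 4 without that of 72. Over all genes, 250 of 5534 and 95 of 5533 were lower in these fits. With repeat number as a covariate the glycolytic count was 11 of 20, where 169 of all 5535 genes were lower. With that covariate the ergosterol medians were -0.05 and -0.04, and 10 genes had higher and 14 lower means in total RNA. The ergosterol list had 8 of 24 genes lower at that threshold in polyA RNA without the strain of 118 repeats, and 7 of 24 in total RNA without that of 156. Over all features, 189 of 5535 and 106 of 3955 were lower in these fits. The ergosterol median in polyA RNA was -0.19 without the strain of 118 repeats, -0.18 without that of 156 and -0.06 without that of 129. In total RNA it was -0.07 without the strain of 72 or 129 repeats and -0.09 without that of 237.

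Genes of ribosomal proteins mostly had higher means in CGY20. This list of all symbols of cytosolic ribosomal proteins was added after values were seen. Of 136 genes tested in both assays, 85 had higher means in CGY20 in both and 13 had lower means in both. The median difference was 0.03 in polyA RNA and 0.07 in total RNA, and those over all genes were -0.02 and 0.00. The polyA means were higher in CGY20 for 100 of 138 genes as reported, for 124 with TMM factors and for 82 with quantile normalisation, with medians of 0.05 and 0.02 under the latter 2. In polyA RNA 4 of 138 passed an unadjusted p under 0.05, all higher (RPL31B, RPL39, RPL41A and RPS30B), and in total RNA 7 of 136, all higher (RPL31B, RPL29, RPL33B, RPS10A, RPS16A, RPS24A and RPS27B). Over all genes 1.72% were higher in polyA RNA and 2.27% in total RNA. A shorter list of 41 ribosomal protein genes, written earlier, had smaller medians of 0.01 in polyA RNA and 0.04 in total RNA. In polyA RNA 26 of its genes had higher and 15 lower means, and 1 passed, higher. In total RNA 40 were tested, 31 had higher and 9 lower means, and 4 passed, all higher. RPS27B was at 340, 300.1 and 300.8 normalised reads in CGY20 and 259, 279 and 250.2 in CGY24. RPL39 was at 11271, 12741 and 11352 TPM against 11175, 10196 and 10209 TPM. The medians of the full list by strain overlapped between the series in both assays, and those of the strain of 147 repeats were the highest, at 0.04 and 0.09. Without it, 0 of 138 passed in polyA RNA and 3 of 137 in total RNA, and the medians were 0.01 and 0.04. Over all features, 105 of 5539 and 63 of 3939 were higher in these fits. Without the CGY24 strain of 129 repeats the polyA median was also 0.01 and 2 of 138 passed, and 3 of 137 passed in total RNA. Over all features, 90 of 5533 and 103 of 3958 were then higher. The polyA count was 7 of 138 without the strain of 237 repeats and 1 without that of 156. Over all genes it was 111 of 5534 and 88 of 5538. The total RNA count was 13 of 137 without the strain of 237 repeats, 16 of 136 without that of 156 and 3 of 136 without that of 72. Over all features it was 111 of 3927, 103 of 3955 and 96 of 3914. Many ribosomal protein genes are near-identical pairs whose reads can be split between copies.

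**Figure D3:**
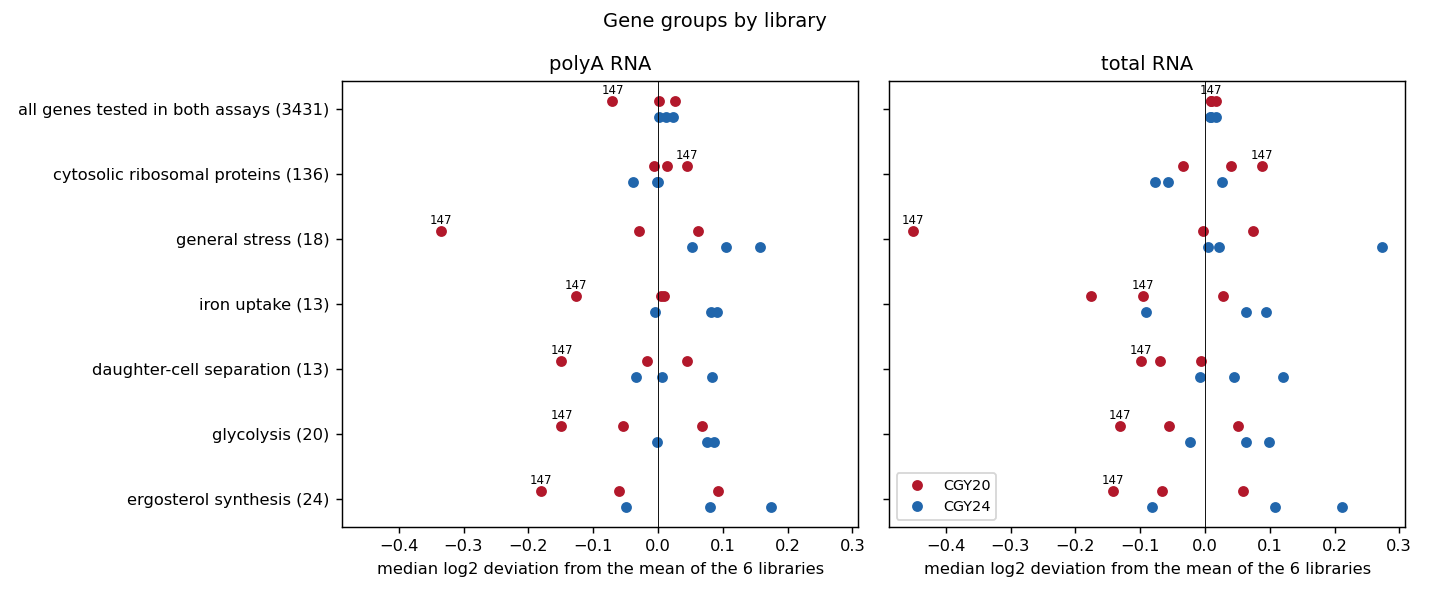
Median log2 deviation of each gene group in each library from the mean of the 6 libraries, over the members tested in both assays (number in brackets), for polyA RNA (left) and total RNA (right). Red points are CGY20 strains, blue points CGY24 strains, and the strain of 147 repeats is labelled. It is the lowest point for general stress at -0.33 and -0.45, and the highest for ribosomal proteins at 0.04 and 0.09.

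Nuclear genes of the respiratory chain had medians of 0.06 in polyA RNA and 0.12 in total RNA. In polyA RNA 5 of 39 were higher and 0 lower at an unadjusted p under 0.05 (ATP7, QCR9, COX7, COX8 and COX12), against 1.72% higher over all genes, and in total RNA 0 of 31 passed in limma. COX12, a subunit of cytochrome c oxidase, was at 158, 188 and 189 TPM in CGY20 and 156, 130.04 and 154 TPM in CGY24. ATP7, a subunit of the ATP synthase stalk, was at 167, 175 and 151 TPM against 148, 139 and 136 TPM. The groups were apart for all 5, narrowly for COX8 and COX12, while the strain medians of the list overlapped in both assays. Without the strain of 147 repeats the list medians were 0.02 and 0.09, and 3 of 39 were higher at that threshold in polyA RNA. The same count was found without the strain of 72 or 156 repeats. Over all genes, 105 of 5539, 96 of 5533 and 88 of 5538 were higher without the strains of 147, 72 and 156 repeats. The total RNA median was 0.20 without the CGY24 strain of 129 repeats and 0.08 without that of 72.

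The genes that passed the adjusted threshold did so in 1 assay each, and were named after their values were seen. YAL037C-A, a 93-base frame on the minus strand of chromosome I at 73426 to 73518, is listed at 0 in the 3 CGY20 polyA libraries and at 4.63, 4.50 and 3.98 TPM in the CGY24 libraries of 72, 129 and 156 repeats (limma adjusted p = 0.000608). It is also listed at 0 in the CGY24 library of low recovery, in all CGY28 and CGY29 libraries and in every total RNA library. It lies 137 bases past the end of CDC19, the pyruvate kinase gene on the plus strand. A feature of the total RNA files labelled as possible antisense to this frame was at 276, 258 and 253 normalised reads in CGY20 and 346, 353 and 433 in CGY24 (log2 difference -0.52 ± 0.11, adjusted p = 0.0744). The groups were apart for this antisense feature, which passed when features with a mean under 50 reads were left out. It also passed without a filter, and without the CGY24 strain of 72 or of 129 repeats. The CGY28 strains were at 378, 276 and 196 normalised reads and the CGY29 strain at 353, across the levels of both series. CDC19 itself had log2 differences of -0.07 ± 0.06 in polyA RNA and -0.04 ± 0.06 in total RNA, with groups that overlapped.

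YGR240C-A, a 201-base frame on chromosome VII at 974577 to 974777, is listed at 0 in the 3 CGY20 polyA libraries and at 3.72, 2.37 and 3.23 TPM in the CGY24 libraries (limma adjusted p = 0.00726). The CGY28 and CGY29 libraries of normal recovery lay between 1.33 and 4.09 TPM and the CGY24 library of low recovery at 1.19 TPM, so the zeros are the part in which CGY20 stood apart. Total RNA lists it at 0 reads throughout. With CGY20 at 0, YAL037C-A and YGR240C-A passed the filter of a mean of 1 TPM only through the CGY24 libraries. Both lie near that floor, and the stricter filter, a mean of 5 TPM, left them untested. Their adjusted p is therefore not taken as support for a difference. YOL013W-A, for which the reference annotation used here gives no entry, was at 54.8, 58.1 and 53.2 TPM in CGY20 and 37.9, 31.0 and 34.0 TPM in CGY24 (log2 difference 0.68 ± 0.08, adjusted p = 0.0189). It had 0 to 3 reads per library in total RNA and was not tested there. When the CGY24 library of low recovery was added, none of the 3 passed in limma, and their adjusted p was 0.979 for YAL037C-A, 0.118 for YGR240C-A and 0.630 for YOL013W-A. Without the CGY24 strain of 156 repeats, YGR240C-A and YOL013W-A stood at an adjusted p of 0.0632, and without the strain of 72 repeats YGR240C-A at 0.0788. YOL013W-A was at 0.0971 without the CGY20 strain of 147 repeats and at 0.0852 without that of 237. It was at 0.205 with moderation that ignores abundance and at 0.999 with all 10 strains in the fit.

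In total RNA the 2 calls are a single measurement. YAR010C and YPR137C-A are identical 1323-base Gag frames of Ty1 retrotransposons, on chromosome I at 164544 to 165866 and chromosome XVI at 808947 to 810269, and hold equal values. They were at 260, 299 and 254 normalised reads in CGY20 and 138, 158 and 141 in CGY24. All 3 CGY20 libraries were well above all 3 CGY24 libraries, and the log2 difference was 0.89 ± 0.12 (limma adjusted p = 6.77e-05; edgeR 0.00202; DESeq2 1.41e-05). The CGY28 and CGY29 libraries lay between 180 and 399 normalised reads. The Gag-Pol frame YPR137C-B, whose first 1323 bases equal this sequence, had means of 1730 in CGY20 and 1676 in CGY24. Its log2 difference was 0.04 (limma unadjusted p = 0.729), so the longer frame with the same bases showed no such rise. The truncated Gag-Pol frame YAR009C differed by -0.34 (limma unadjusted p = 0.0339), and the groups overlapped for both. The call of the 2 Gag frames held in all 6 fits that left out 1 strain. With all 10 strains in the fit, or with moderation that ignores abundance, the adjusted p was 0.972 and 0.536. The 70 Gag and Gag-Pol frames tested hold 61 distinct sets of values, since identical copies are listed with equal values. Of the 61, 31 had higher and 30 lower means in CGY20, and 4 were higher and 8 lower at an unadjusted p under 0.05, against 2.27% and 2.61% over all features. The frames share sequence, so even these are not separate measurements, and none was tested in polyA RNA.

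**Figure D4:**
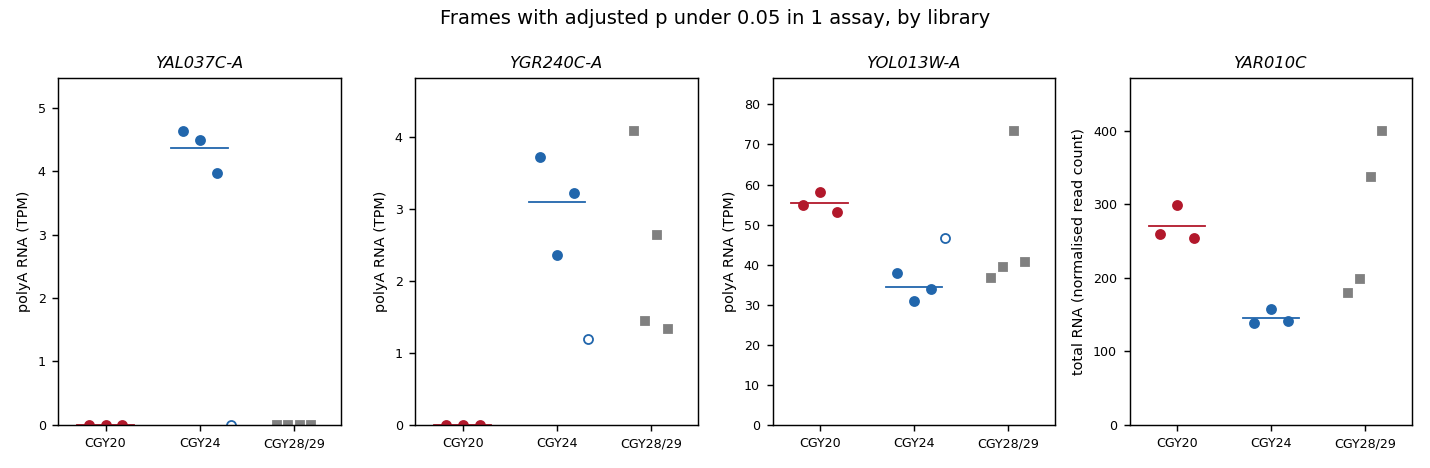
Level in each library of the frames past an adjusted p of 0.05 in 1 assay, as TPM in polyA RNA for YAL037C-A, YGR240C-A and YOL013W-A and as normalised read count in total RNA for YAR010C. Filled circles are CGY20 and CGY24 strains of normal recovery with lines at their means, the open circle is the CGY24 library of low recovery and grey squares are the 4 CGY28 and CGY29 strains. Among the libraries shown, YAL037C-A is above 0 only in the 3 CGY24 libraries of normal recovery, and the CGY28 and CGY29 values of YAR010C span 180 to 399.

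The labels give LYP1 and CAN1 as deleted in every strain. LYP1, the lysine permease, is listed at 0 in every polyA library and had 0 or 1 read in every total RNA library. CAN1, the arginine permease, is listed at 0 in polyA RNA but was at 27.0, 33.2 and 24.99 normalised reads in CGY20 and 24.3, 24.19 and 28.9 in CGY24 in total RNA, and the groups overlapped. The total RNA level of CAN1, near the median of 28.2 reads of a tested feature, goes against the can1d label in both series alike, the cause was not tested, and no direction is drawn from it. HIS3, whose his3d1 allele removes part of the gene, was at 90.2, 103 and 88.9 TPM in CGY20 and 94.1, 97.3 and 93.3 TPM in CGY24. In total RNA HIS3 was at 36.0, 42.0 and 24.06 against 20.7, 27.2 and 16.7 normalised reads, with groups that overlapped and a log2 difference of 0.63 ± 0.25 (limma adjusted p = 0.924). The medians of the series difference by nuclear chromosome ran from -0.06 (chromosome I) to -0.01 (chromosome X) in polyA RNA and from -0.06 (chromosome III) to 0.05 (chromosome IX) in total RNA.

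The CGY24 strain of 104 repeats, whose polyA recovery was low, entered the fits only where it is said to have been added. It was nearer to the CGY24 mean than to the CGY20 mean for 4 of the 7 genes (FET3, CHA1, ADR1 and HST3) and for 19 of the 27 (70.4%). The background is 112 of the 213 genes past an unadjusted p in polyA RNA (52.6%) and 2864 of all 5535 (51.7%). FET3 was at 129.5 TPM in this library, between the CGY24 strains of 72 and 129 repeats. CTS1 was at 486 TPM and RPL31B at 1682 TPM, beyond the CGY20 means on the far side from CGY24. Its recovery was low and it has no total RNA partner, so its part in any difference was not tested.

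The set of genes past an unadjusted p in both assays depended on single strains. It held 2 genes without the CGY20 strain of 147 repeats, 21 without that of 118 and 26 without that of 237. It held 2, 8 and 3 genes without the CGY24 strains of 72, 129 and 156 repeats. Between 1 and 3 of the 7 genes were in each of these sets. With repeat number as a covariate 12 genes passed, and FET3 was the 1 of the 7 among them. The direction of all 7 genes was kept in both assays under every alternative in which they were tested. This is not separate support, since the 7 were chosen from these same libraries for their shared direction. For ADR1, HST3, CTS1 and RPL31B, whose groups are apart in both assays, leaving out a strain cannot turn the direction.

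**Figure D5:**
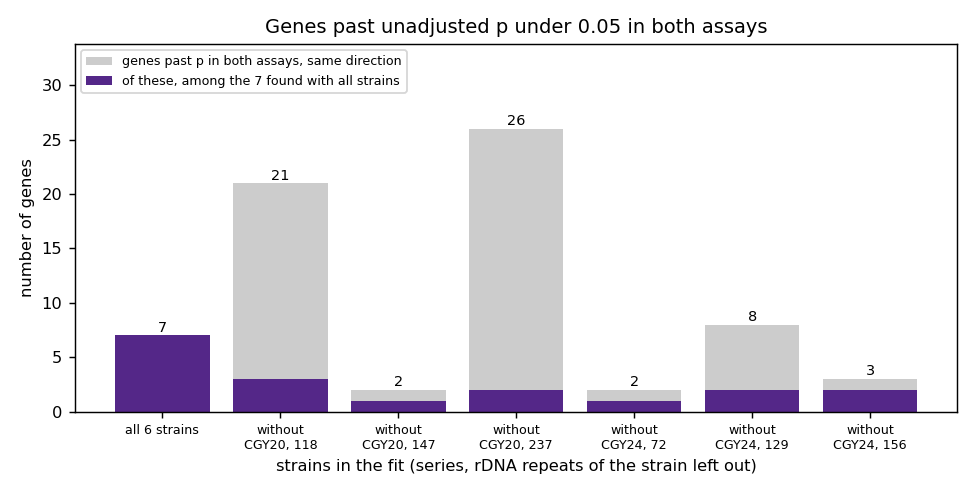
Number of genes past an unadjusted p of 0.05 in both assays in the same direction (grey bars, with the number on top), with all 6 strains and with each strain left out, labelled by series and rDNA repeats. The purple part counts genes among the 7 found with all strains. The total runs from 2 to 26, and 1 to 3 of the 7 are among the genes in each fit that leaves out a strain.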

How the data were processed

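PolyA-selected and total RNA of 6 haploid yeast strains were compared by strain-name series. The submitters' processing notes name Salmon 0.8.1, bcl2fastq, DESeq2 and the build sacCer3; per the labels' protocols, the libraries were strand-specific. The authors deposited polyA values as TPM, with 5919 entries of which 96 are spike-ins, and total RNA values as a normalised signal for 18222 features. All these signal values (100%) were whole multiples of 1 step per library within 0.001, so whole reads were recovered. The 43 rDNA features were left out of tests. A fit on counts had been planned for total RNA in case they were raw. As they are scaled, limma 3.58.1 (R 4.3.3; moderation follows abundance and is robust) tested log2(TPM + 1) where the mean was 1 TPM or more, and log2(value + 1) over features past edgeR's expression filter. Fold differences on this scale are understated for low genes. edgeR 4.0.16 and DESeq2 1.42.0 on the recovered reads were alternatives. All p-values are two-sided, adjusted by Benjamini and Hochberg, with a threshold of 0.05. They measure the spread between strains, 1 library each. The fits were tested on simulated data.

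The members and lists were chosen with earlier results of these data known. Genes were to be named where both assays passed the adjusted threshold (none did), or where both passed an unadjusted p with groups apart and the same sign (ADR1, HST3, CTS1, RPL31B), with the deleted loci and up to 4 members of a list that holds such a gene. Others are said to be named after their values were seen, and so were FET3, TSL1 and CHA1, which overlap in 1 assay. The assays are paired by strain: deviations of the same strain from its group mean correlated at 0.14 to 0.27 across genes, over 0.1 in 6 of 6. These values were not set against those of different strains, so they cannot show how far libraries of the same strain go together. Symbols and coordinates are from the R64 annotation (5817 polyA and 6052 total RNA identifiers matched), and sequences were read from its genome with Python 3.11.15.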

Additional observations from a re-analysis of the deposited data

How the results depend on the processing

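Settings here are changes of pseudocount, filter, scaling, covariate, strains, moderation or tool, and 0 genes passed the adjusted threshold in both assays under any of them. The polyA count of 3 became 1 under the stricter filter, where YAL037C-A and YGR240C-A were not tested and YOL013W-A still passed. It became 0 with the low-recovery library added, and ran from 2 to 6 with 1 strain left out. The total RNA count of 2 became 9 without a filter and 0 with all 10 strains, with or without repeat number as a covariate, and with plain moderation, and ran from 2 to 7 with 1 strain left out. The count of 7 genes past an unadjusted p in both assays became 12 with repeat number as a covariate, 11 with the low-recovery library added and 2 with DESeq2, and ran from 2 to 26 with 1 strain left out. The 2 that remained with DESeq2 were FET3 and TSL1. The 27 genes with groups apart became 11 under the stricter filter, because it leaves genes out of the test. The count was 17 with the low-recovery library added. With 1 strain left out it was 54 to 179, where 2 strains against 3 separate more easily by construction. Averaged assays gave 1 gene without a filter in place of 0, and 0 in each fit that left out a strain. The interaction gave 1 gene in place of 0 without a filter, and 0 to 1 with 1 strain left out. For the other changes the cause was not tested. With the strain as a replicate block across the paired assays, the interaction called 0 genes, as without it, and it was fitted for the interaction alone. List medians under other scalings, with the covariate and without single strains were added after seeing the data. About 28.2 reads per library limit the total RNA test, and TPM hide the polyA depth.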
